A study of Mus musculus with 2 samples.

Results

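The fibroblast growth factor (FGF) set comprised the 37 genes on the array that are named as FGF ligands (Fgf followed by a number), the receptors Fgfr1 to Fgfr4 and Fgfrl1, the feedback genes Spry1 to Spry4, Spred1 to Spred3 and Dusp6, and the transcription factor genes Etv4 and Etv5. The rule goes by gene name and uses no measured value, and 30 of the 37 were bright enough to be measured, out of 20495 measured genes in all. RNA came from whole ureters dissected from NMRI mouse embryos at E14.5. In Rbpj-cKO embryos (genotype Tbx18(cre/+);Rbpj(fl/fl)) the floxed Rbpj alleles are recombined where the Tbx18 locus, active in the mesenchyme around the ureteric epithelium, expresses Cre, so other cells of the ureter keep Rbpj. Control embryos carried a floxed Rbpj allele, with the other allele unspecified in the labels (Rbpj(fl/?)). Each of 2 Agilent arrays carried an Rbpj-cKO and a control sample together in different colours. Replicate 1 was a male pair with Rbpj-cKO in AlexaFluor647 (red), and replicate 2 a female pair with Rbpj-cKO in AlexaFluor555 (green), so sex and colour cannot be told apart. The labels used here do not say how many embryos a sample combined. The limma p-values rest on the spread between these 2 arrays alone, that of each gene moderated by the spread over all measured genes.

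Secreted FGFs bind receptor tyrosine kinases together with heparan sulfate on the cell surface, and the active receptor signals through the Ras-ERK relay. ERK activity raises the genes of the ETS transcription factors Etv4 and Etv5 and of the Sprouty, Spred and Dusp6 proteins, which dampen the same relay, so these genes are widely used as readouts of FGF signalling. In developing organs with an epithelium inside a mesenchyme, Fgf7 and Fgf10 are typically made by the mesenchyme and act on the epithelial splice form of Fgfr2.

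Values are log2 ratios of Rbpj-cKO over control, in which 0 is no difference, given for replicate 1 and replicate 2 in that order or as the mean ± SD of n = 2 arrays. Signals are the scanner software's processed signals and are compared within an array. Rbpj itself had ratios of -1.13 and -0.63 (mean -0.88 ± 0.35, limma adjusted p = 0.776), and -0.48 and -0.37 on its other probe. Between 67.7% and 70.1% of the spots other than control spots were well above background in a channel, and 0 of them were saturated. All 8 markers of the ureteric mesenchyme and all 9 of the urothelium were measured. Over all genes, ratios on replicate 1 tended to have the opposite sign on replicate 2 (Pearson's r = -0.352 across genes, which are not independent replicates), and 30.8% of genes had the same sign on both. The colours are stated in the labels, and the direction was taken from them. Each gene was tested with limma against a ratio of 0, and p-values were adjusted over all measured genes by the Benjamini-Hochberg method. At an adjusted p under 0.05, 0 of the 30 measured members were called, where 0% of all genes (0 of 20495) were called. At an unadjusted p under 0.05 there were 1 member (Fgf7) and 372 genes. The limma adjusted p of each member rounded to 1. With an intensity trend and robust moderation in limma, 5 genes and 0 members passed. The 95% interval of a member's mean reached between 0.31 and 0.42 to either side of it, so that smaller differences could not be told from 0 with 2 arrays.

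The FGF set stood close to equal expression in its median ratio. Its lowest mean ratios, by the brightest probe of each gene, were in 2 ligand genes. Of the 30 measured members, 9 were below 0 on both arrays (30% of them, against 14.7% of all genes) and 6 were above 0 on both (20%, against 16.1%). The remaining 15 had opposite signs. Other scalings moved this balance: 8 were below 0 and 9 above without background correction, 9 and 9 with an offset of 10, 10 and 9 with the scanner software's ratios, and 7 and 4 with median centring. With median centring Fgfr1, Fgfrl1, Spry1, Spry2, Fgfr3 and Etv5 no longer had the same sign on both arrays. A stricter count took members whose ratio on each array also exceeded the SD between the spots of the probe there. By it 5 members were below 0 (Fgf7, Fgf18, Fgfr4, Fgfr1 and Fgfrl1), where 5.55% of all genes were, and 3 were above 0 (Fgf12, Etv5 and Fgfr3), where 7.86% were. By a rule of 1.5-fold on each of the arrays in 1 direction, 0 members were called, where 0.132% of all genes were higher and 0.0634% lower. The median ratio of the members was -0.02 and that of all genes -0.0033. A mean within 0.2 of 0 was found for 26 of 30 members and for 18933 of all 20495 genes. Whatever its sign, the mean lay at a median distance from 0 of 0.096 among members and of 0.049 among all genes.

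**Figure D1:**
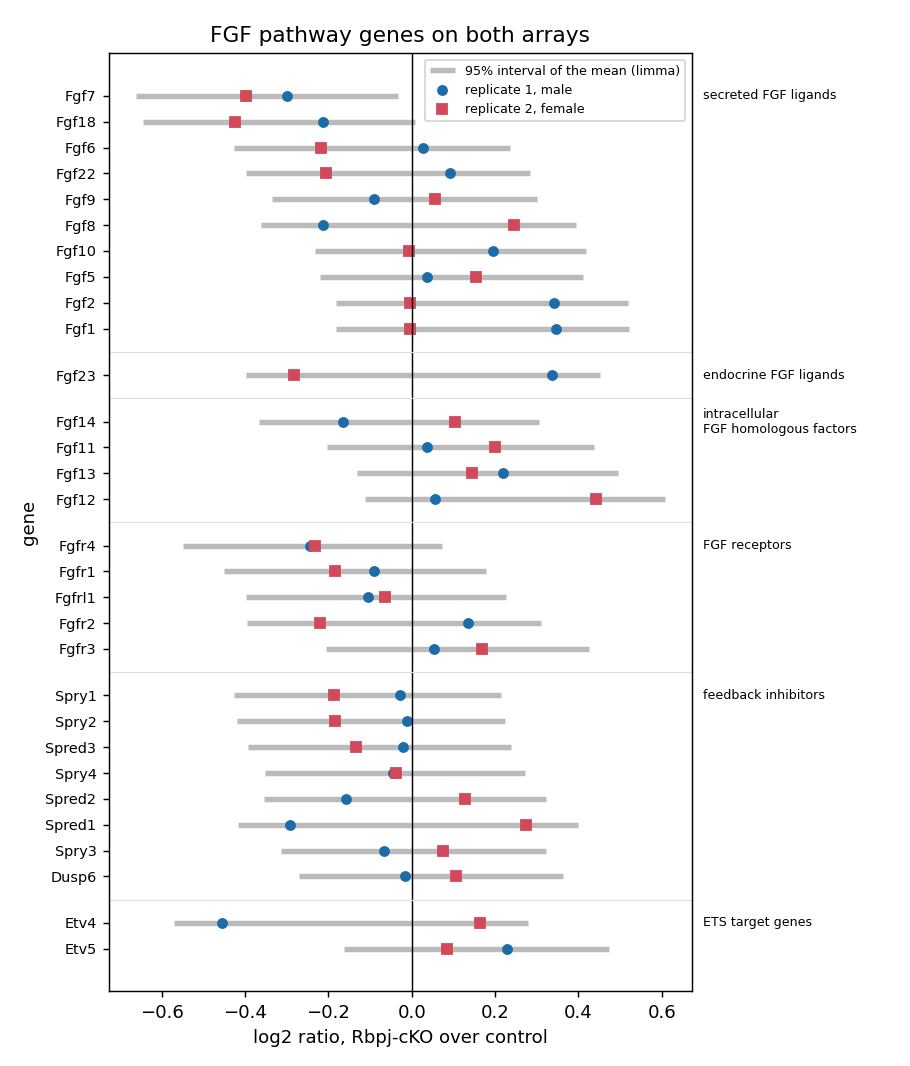
Log2 ratio of Rbpj-cKO over control (x axis) for the 30 measured FGF genes (y axis, grouped by role), with circles for replicate 1 (male), squares for replicate 2 (female) and grey bars for the 95% interval of the mean from limma. Fgf7 has an interval wholly below 0, from -0.66 to -0.03, before adjustment for multiple tests, and the other intervals include 0.

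**Figure D2:**
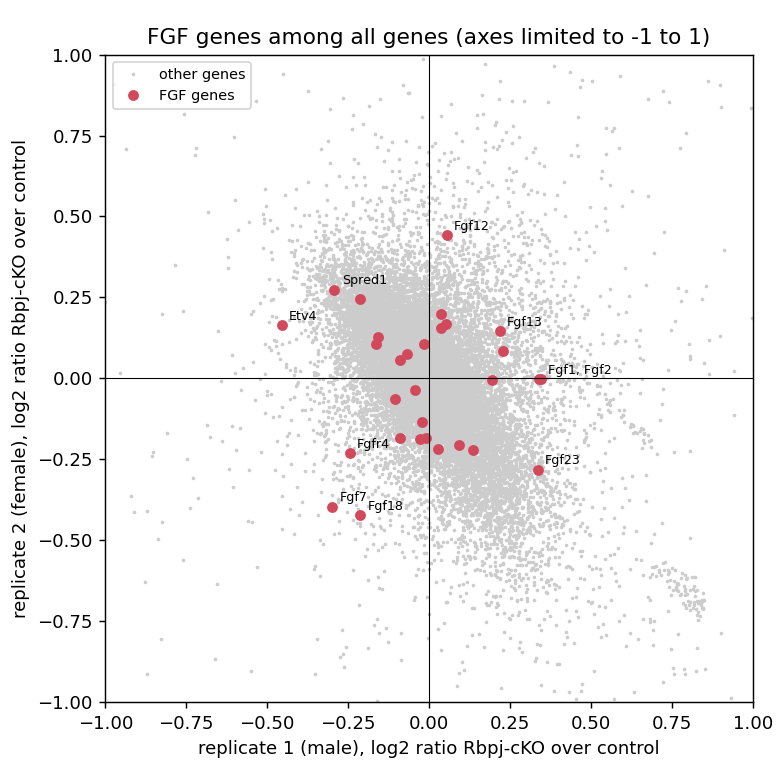
Log2 ratio on replicate 1 (x axis) against replicate 2 (y axis) for all 20495 measured genes (grey) and the 30 FGF genes (red), with both axes limited to -1 to 1. Fgf7, Fgf18 and Fgfr4 lie at the lower left, where both ratios are below 0, while the cloud of all genes slopes from upper left to lower right (r = -0.352).

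Fgf7, a mesenchymal ligand that acts on neighbouring epithelium, had the lowest mean ratio of the set. The processed signal of its probe (mm9 chr2:125916134-125916193, plus strand) was 544 in male Rbpj-cKO and 685 in male control, and 358 in female Rbpj-cKO and 465 in female control. Rbpj-cKO was below the control on each array. The ratios were -0.30 and -0.40, with their mean at -0.35 ± 0.07 (SD, n = 2), which is 1.27-fold lower, and with a 95% interval of -0.66 to -0.03 (limma adjusted p = 1). The spots of the probe differed by an SD of 0.028 on replicate 1 and 0.044 on replicate 2, well under the ratios themselves. Spots repeat a measurement within an array, so this SD does not measure the spread between samples, here or in the stricter count.

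Fgf18, a ligand known for its part in skeletal and lung development, was the next lowest and was measured by 2 probes that overlap on the transcript. The brighter probe (mm9 chr11:33017440-33017499, minus strand) had signals of 747 in male Rbpj-cKO and 877 in male control, and of 485 and 650 in the female pair. Its ratios were -0.21 and -0.42, a mean of -0.32 ± 0.15, with a 95% interval of -0.64 to 0.01 (limma adjusted p = 1). The other probe (chr11:33017474-33017533) had -0.24 and -0.37, a mean of -0.31 ± 0.09. All 4 ratios were below 0, but the probes share a stretch of 26 bases and read nearly the same part of the transcript. They are thus not independent of each other. These sequences, like the others printed here, were picked after the values were seen. The probes are shown by their first 30 bases, 5′ to 3′ and as read from the array files, since Fgf7 and Fgf18 gave the lowest mean ratios of the set. Capitals mark the shared stretch, which opens the brighter probe and closes the other, beyond the bases shown.
Fgf7 probe: gctcttcccacaaataatcatgcttatttc
Fgf18 brighter probe: ACGAGGAAACTGCGAGAAACCAAAGTcctt
Fgf18 other probe: acaattcaaaactcatccccagaggaggac

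Some markers of mesenchymal cell types ran below 0 beside these ligands, and others did not. Of 8 markers of the ureteric mesenchyme, all measured, 2 were below 0 on both arrays (Foxf1 at -0.19 and -0.21, Sox9 at -0.11 and -0.19) and 2 above (Bmp4 at 0.27 and 0.06, Tbx2 at 0.17 and 0.52). Foxf1, Sox9 and Tbx2, like Myocd and Myh11 among the smooth muscle genes, were singled out after their values were seen. Tbx18, whose locus drives Cre, had 0.17 and -0.24. The summed signal of the list was 45425 in Rbpj-cKO and 44096 in control on replicate 1, and 37758 and 36485 on replicate 2. Of 5 markers of renal stroma, 3 were below 0 on both arrays and 1 was above. In order of brightness, Dlk1 had 0.58 and -0.63, Meis1 -0.01 and -0.22, and Foxd1 -0.21 and -0.23. The summed signal of the 5 markers was 51238 and 42984 on replicate 1 and 32606 and 43872 on replicate 2. Of 5 smooth muscle genes 2 were below 0 on both, Myocd (-0.67 and -1.04) and Cnn1 (-0.29 and -0.31). Tagln, the brightest of the list, was above 0 on both (0.24 and 0.10), and Acta2 (0.52 and -0.77) and Myh11 (0.04 and -0.14) had opposite signs. The summed signals of these 5 genes were 4744 and 4136 on replicate 1 and 3503 and 4308 on replicate 2. The part of these cells in the ligand ratios was not tested. In whole ureters, fewer cells of a type and less RNA per cell cannot be told apart.

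The 250 bases before the transcription start of both ligand genes are shown because these were the members with the lowest mean ratios and the gene deleted in the mesenchyme, Rbpj, encodes a DNA-binding protein whose core recognition sequence is TGGGAA. The sequences are from RefSeq on GRCm38.p6, another build than the mm9 positions of the probes, and 27 of the 37 members had an entry. The motif TGGGAA was searched on both strands (as TGGGAA and TTCCCA) and is in capitals where it occurs. Fgf7 (chr2:126034408-126034657, plus strand) holds it once, from 213 to 208 bases before the start, and Fgf18 (chr11:33147401-33147650, minus strand) does not hold it in this window.
Fgf7: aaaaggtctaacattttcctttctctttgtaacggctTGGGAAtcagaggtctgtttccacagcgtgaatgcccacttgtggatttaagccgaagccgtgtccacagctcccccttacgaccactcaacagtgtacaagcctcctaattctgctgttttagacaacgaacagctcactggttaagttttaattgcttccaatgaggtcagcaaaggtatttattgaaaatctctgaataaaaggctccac
Fgf18: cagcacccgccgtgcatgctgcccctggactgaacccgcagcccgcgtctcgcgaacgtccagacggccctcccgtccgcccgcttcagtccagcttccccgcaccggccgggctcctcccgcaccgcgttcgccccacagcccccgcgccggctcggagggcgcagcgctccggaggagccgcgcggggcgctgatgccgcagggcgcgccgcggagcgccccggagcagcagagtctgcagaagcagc
Among the 24 measured members with an entry, 5 held the motif (Fgf7, Fgf10, Fgfr2, Fgfrl1 and Spred2), which is 20.8%, and 20.7% of the promoters of all measured genes with an entry held it. The longer form GTGGGAA was in 0 of the 24 and in 5.47% of those promoters. These are matches of letters and not sites shown to be bound.

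The other ligands that act on the epithelial form of Fgfr2 had means nearer to 0. Fgf10, the mesenchymal ligand required for budding of lung and limb, had 0.19 and -0.01, a mean of 0.09 ± 0.14, with a 95% interval of -0.23 to 0.42 that reaches at most 1.34-fold. Its signals were 271 in Rbpj-cKO and 237 in control of the male pair, and 168 and 167 in the female pair. Fgf22 had 0.09 and -0.21, and Fgf1, which binds all FGF receptors, had 0.35 and -0.0035 with signals of 112 and 85.6, and of 76.8 and 75.5. Its mean was 0.17 ± 0.25, with a 95% interval of -0.18 to 0.52 (limma adjusted p = 1). Fgf2, a broadly acting ligand, had 0.34 and -0.0033, a mean of 0.17 ± 0.24 with an interval of -0.18 to 0.52 (limma adjusted p = 1), and its spots varied by an SD of 0.15 and 0.20. Fgf10, Fgf1 and Fgf2 were thus above control in the male pair and within 0.01 of it in the female pair. Without background correction, with an offset of 10, with the scanner software's ratios and with the authors' deposited table, all of them were above 0 on both arrays. The mean of Fgf2 was then 0.20, 0.27, 0.41 and 0.55, in that order.

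The ligands Fgf9, Fgf8 and Fgf6 had opposite signs on the arrays. Fgf9, made by several embryonic epithelia, had -0.09 and 0.06, a mean of -0.02 ± 0.10, with a 95% interval of -0.34 to 0.30. Fgf8, a ligand of early mesoderm and of the forming nephron, had -0.21 and 0.24 on the 1 of its 3 probes that could be measured. Fgf5, known as a regulator of hair growth, had 0.04 and 0.15. Fgf6, a ligand of myogenic cells, depended on the probe. The brighter probe (mm9 chr6:126978138-126978197) had 0.03 and -0.22, and the other (chr6:126974677-126974736) had 0.48 and -0.91, with signals of 37.9 in Rbpj-cKO and 21.8 in control of the male pair and 16.3 and 48.4 in the female pair.

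The second Fgf6 probe differed between the arrays in the direction in which skeletal muscle genes did. This direction was not particular to muscle, as the erythroid genes had median ratios of 0.24 and -0.58. Of 12 skeletal muscle markers 11 were measured, and 0 of them had the same sign on both arrays, with median ratios of 0.65 and -1.25. Their summed signal was 8302 in Rbpj-cKO and 3991 in control of the male pair and 3366 and 10388 in the female pair, and Myf5 was not well above background. Acta1, the skeletal actin gene, had 0.92 and -1.80, and the perinatal myosin gene Myh8 had 1.38 and -1.38. The part of muscle in the Fgf6 ratios was not tested.

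Ligands of early embryonic stages and hormones were mostly not well above background. Probes of Fgf3, Fgf16, Fgf17 and Fgf20 were above background on 0 of 4 spots in every channel. Fgf4 was above background on 4 of 4 spots in female control alone, Fgf15 on 3 spots in male control alone and Fgf21 on 3 spots in male Rbpj-cKO alone, so these 7 genes were not measured. Fgf23, the hormone that lowers serum phosphate, gave contrary readings on its 2 probes. One (mm9 chr6:127030758-127030817) had signals of 7882 and 6238 in the male pair and 4408 and 5295 in the female pair, with ratios of 0.34 and -0.28. The other (chr6:127031289-127031348) was above background on 0 of 4 spots in every channel. The first 30 bases of both probes are shown because the bright one opens with a run of alternating C and A, in capitals.
Fgf23 bright probe: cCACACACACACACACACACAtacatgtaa
Fgf23 other probe: tttagtgaaagcctccgctagcaggttgac
Whether the bright signal comes from Fgf23 transcripts was not tested.

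The intracellular FGF homologous factors Fgf11 to Fgf14, which are not secreted and bind voltage-gated sodium channels in excitable cells, had no member past the test. Of the 4 genes 3 were above 0 on both arrays, where 16.1% of all genes were, and 1 of them (Fgf12) exceeded the SD between its spots. Fgf12 had signals of 34.3 and 33.5 in the male pair and of 41.9 and 25.4 in the female pair. On this brighter probe of the gene the difference thus lay almost wholly in the female pair. The ratios were 0.06 and 0.44, a mean of 0.25 ± 0.27, with a 95% interval of -0.11 to 0.61 (limma adjusted p = 1), and its other measured probe had 0.14 and 0.10. The mean of Fgf12 was 0.38 with the scanner software's ratios, and by the authors' deposited table its signs differed between the arrays. Fgf13 had 0.22 and 0.15, a mean of 0.18 ± 0.05 with an interval of -0.13 to 0.50, while its spots differed by an SD of 0.16 and 0.15. The other Fgf13 probe had 0.10 and -0.02, and the mean was 0.11 over both probes and 0.33 by the authors' deposited table. Fgf11 had 0.04 and 0.20 on its brighter probe and 0.0052 and -0.08 on the other, and Fgf14 -0.16 and 0.10 against -0.07 and -0.14. For Fgf11, Fgf13 and Fgf14 the probes of a gene therefore differed in the sign of a ratio on at least 1 array.

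Markers of neural crest, glia and neurons were mostly above 0 beside these genes. Of 13 such markers, all measured, 10 were above 0 on both arrays and 0 below, with median ratios of 0.34 and 0.77. Their summed signal was 65671 in Rbpj-cKO and 39962 in control of the male pair and 37606 and 28850 in the female pair. Chgb, a granin of neuroendocrine cells, had 2.83 and 0.77, and Dbh, the enzyme that makes noradrenaline, had 1.83 and 0.70. The part of neural cells in the Fgf11 to Fgf13 ratios was not tested.

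**Figure D3:**
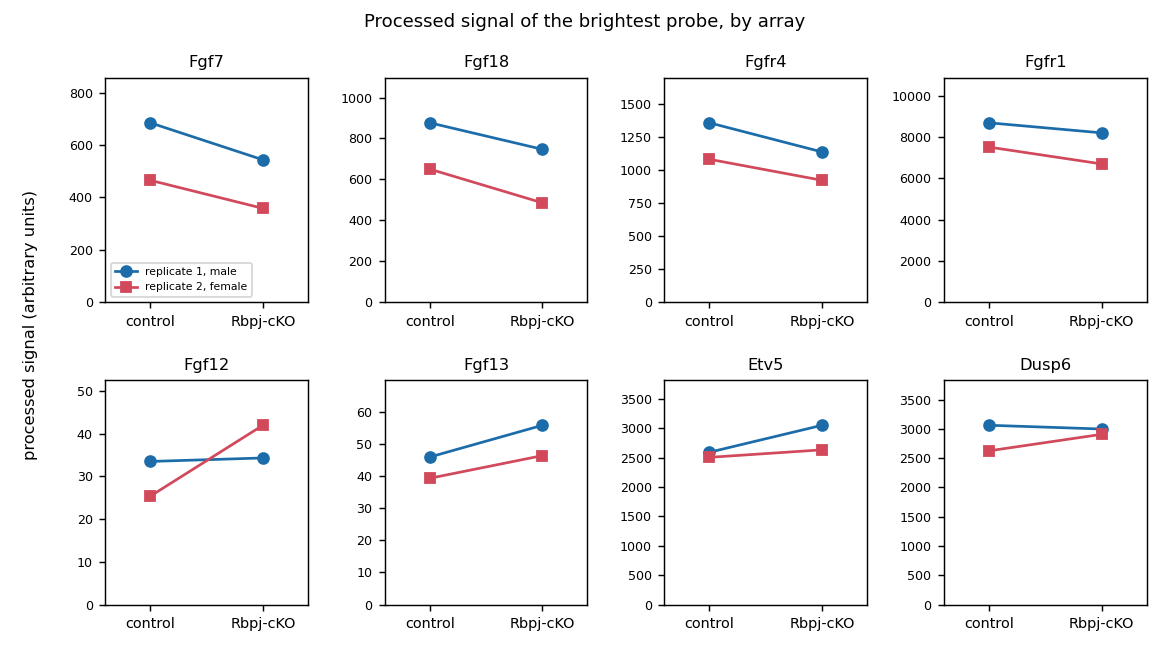
Processed signal in arbitrary units (y axis, from 0, scaled for each gene) in control and Rbpj-cKO (x axis) of the male pair (blue circles) and the female pair (red squares) for 8 FGF genes. Lines join the samples of an array and run down for Fgf7, Fgf18, Fgfr4 and Fgfr1, up for Fgf12, Fgf13 and Etv5, and in opposite directions for Dusp6.

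Of the 5 receptor genes, 3 were below 0 on both arrays (60%, against 14.7% of all genes) and 1 was above (20%, against 16.1%). With median centring Fgfr1, Fgfrl1 and Fgfr3 no longer had the same sign on both arrays. By the brightest probe of each gene, Fgfr4 had the lowest mean ratio among the receptor genes. Its brighter probe (mm9 chr13:55270033-55270092) had signals of 1138 and 1359 in the male pair and of 923 and 1083 in the female pair. Rbpj-cKO was below the control in both pairs. The ratios were -0.24 and -0.23, a mean of -0.24 ± 0.0099, with a 95% interval of -0.55 to 0.07 (limma adjusted p = 1). The second probe (chr13:55269212-55269271) had 0.0050 and -0.43, a mean of -0.21 ± 0.31. The probes therefore had like means, but on the male array the dimmer one showed no difference.

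Fgfr1, the main receptor of mesenchymal cells, had -0.09 and -0.18 on its brightest probe (mm9 chr8:26685072-26685131), a mean of -0.14 ± 0.07 with a 95% interval of -0.45 to 0.18. The signals there were 8202 and 8689 in the male pair and 6696 and 7512 in the female pair. A probe nearer to the 3′ end (chr8:26685820-26685879) had 0.05 and -0.08. The remaining probe (chr8:26684061-26684120) had 0.35 and -0.88, with 406 in Rbpj-cKO and 317 in control of the male pair and 272 and 510 in the female pair. Its ratios lay 1.23 apart, which no other probe of a receptor gene did, and its mean of -0.26 was below that of Fgfr4. The medians of the muscle and of the erythroid markers given beside Fgf6 differed between the arrays in the same direction. Whether this probe reads muscle RNA was not tested.

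This last Fgfr1 probe and the second Fgfr4 probe are alike in sequence. Aligned without gaps, they have 35 identical bases of 58 (60.3%), the most of any pair of probes from different receptor genes. The 30 aligned bases with the most identities are shown, from base 4 of the Fgfr1 probe and base 2 of the Fgfr4 probe, with the 25 identical bases in capitals.
Fgfr1 probe: CCTACgTTcAAGCAGtTGGTGGAAGacCTG
Fgfr4 probe: CCTACtTTtAAGCAGcTGGTGGAAGctCTG
Both probes had their lower ratio in the female pair, at -0.88 and -0.43. Cross-hybridisation between the receptor transcripts was not tested.

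The remaining receptors showed no common direction. Fgfr2, the receptor of Fgf7 and Fgf10 in epithelia, had 0.14 and -0.22, a mean of -0.04 ± 0.25 with a 95% interval of -0.40 to 0.31. Its second probe, which shares 42 bases with the first, had 0.15 and -0.25. Which splice forms of Fgfr2 these probes read was not analysed. Fgfr3, a receptor of cartilage and of the urothelium, had 0.05 and 0.17, a mean of 0.11 ± 0.08 with an interval of -0.21 to 0.43, and signals of 1556 and 1510, and of 1467 and 1286. Its other measured probe had 0.06 and -0.28, so the direction in the female pair differed between probes and their mean was 0.0004. Fgfrl1, a receptor that lacks the kinase domain, had -0.10 and -0.06, a mean of -0.08 ± 0.03 with an interval of -0.40 to 0.23.

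**Figure D4:**
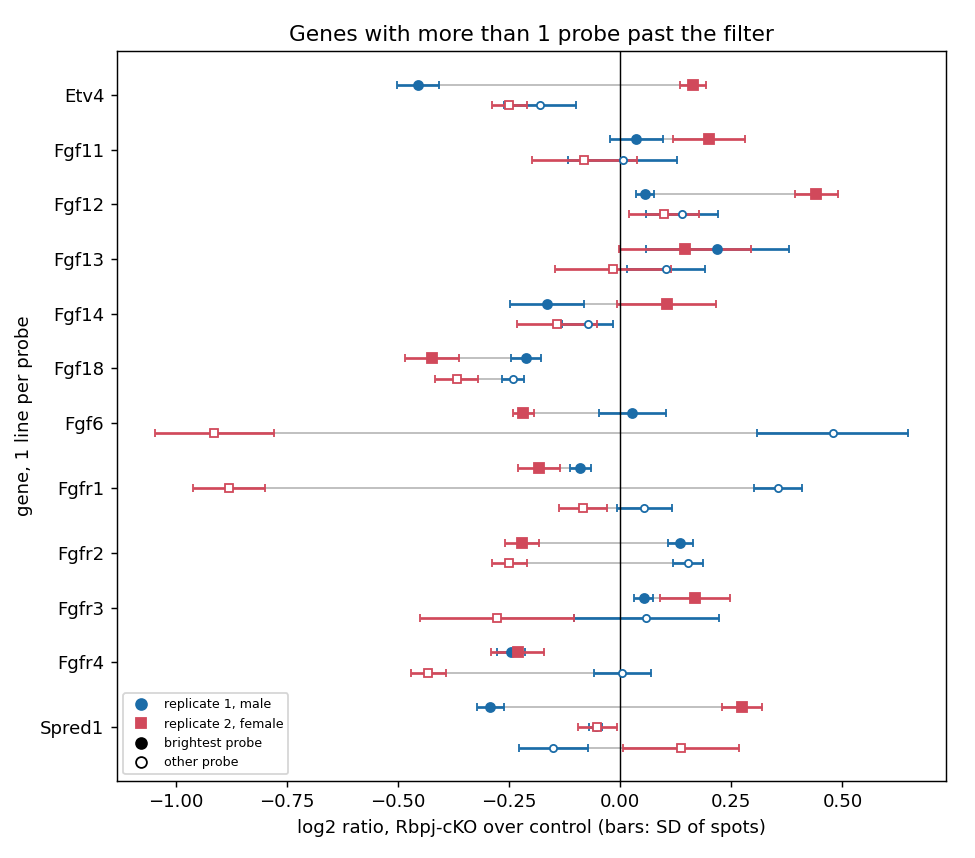
Log2 ratio of Rbpj-cKO over control (x axis, bars show the SD between spots) for each probe of the 12 FGF genes with more than 1 measured probe (y axis), with circles for replicate 1 (male), squares for replicate 2 (female), filled for the brightest probe of a gene and open for others. The probes of Fgf18 and of Fgfr2 repeat each other, while those of Etv4, Fgf6 and Fgfr1 lie apart.

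Of the 8 feedback inhibitors that ERK activity raises, 4 were below 0 on both arrays (50%, against 14.7% of all genes), 0 were above, and none passed the test. None of the 4 was below 0 by more than the SD between spots on both arrays. All 8 had a mean within 0.2 of 0, as did 18933 of all 20495 genes. Dusp6, the phosphatase of ERK, had signals of 2999 and 3063 in the male pair and 2908 and 2626 in the female pair. Rbpj-cKO was thus below control in the male pair and above it in the female pair. Its ratios were -0.02 and 0.11, a mean of 0.05 ± 0.09 with a 95% interval of -0.27 to 0.36, which reaches at most 1.29-fold. Spry1 had -0.03 and -0.19 (mean -0.11 ± 0.11, interval -0.43 to 0.21), with signals of 1154 and 1193, and of 1008 and 1122. Spry2 had -0.01 and -0.18 (mean -0.10 ± 0.12, interval -0.42 to 0.22) and Spry4 -0.04 and -0.04 (mean -0.04 ± 0.0057, interval -0.35 to 0.27). These Sprouty genes, which encode inhibitors of receptor tyrosine kinase signalling, were all below 0 on both arrays. On the male array, however, none of them exceeded the SD between its spots. Spry3 had -0.07 and 0.08.

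The Spred genes, whose products block the activation of Raf, were also near 0 in the mean. Spred1 had -0.29 and 0.27 on its brightest probe, -0.06 and -0.05 on another and -0.15 and 0.14 on the dimmest. Its mean was thus between -0.05 and -0.0067 whichever probe was read. Spred2 had -0.16 and 0.13, and Spred3 -0.02 and -0.13 at signals of 13.9 to 17.5. No feedback inhibitor had a mean further from 0 than that of Spry1.

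Of the ETS genes, Etv5 was above control in both pairs and Etv4 depended on the probe. Etv5 had signals of 3049 and 2590 in the male pair and of 2631 and 2504 in the female pair, with Rbpj-cKO above control in each. The ratios were 0.23 and 0.08, a mean of 0.16 ± 0.10 with a 95% interval of -0.16 to 0.47 (limma adjusted p = 1). Etv4 had -0.46 and 0.16 on its brighter probe (mm9 chr11:101631057-101631116), a mean of -0.15 ± 0.44 with an interval of -0.57 to 0.28, and -0.18 and -0.25 on the other (chr11:101631322-101631381), a mean of -0.22 ± 0.05. The probes differed in direction in the female pair, while the mean was below 0 on both.

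The other genes of the pathway were read from lists of co-receptors, heparan sulfate genes, receptor adaptors, the Ras-ERK relay and further ERK-raised genes. Of 71 listed genes 65 were measured, of which 0 passed at an adjusted p under 0.05 with limma. An unadjusted p under 0.05 was found for 3 of the 65, and for 372 of all 20495 genes. Above 0 on both arrays were 10 genes (15.4%, against 16.1% of all genes) and below 0 on both 13 (20%, against 14.7%). The median ratio was -0.0064. Etv1, an ETS factor gene related to Etv4 and Etv5, had -0.45 and -0.47, a mean of -0.46 ± 0.0087 (a mean of -0.32 by its other probe). Egr1, an immediate early gene raised by ERK, went the other way with 0.34 and 0.66, a mean of 0.50 ± 0.23. Flrt2, a transmembrane protein gene of the FLRT family, had 0.42 and 0.30 (mean 0.36 ± 0.09, and 0.27 by its other probe), and its relative Flrt1 had -0.23 and -0.27, with means of 0.02 and -0.15 by its other probes. The heparan sulfate proteoglycan gene Sdc2 had 0.21 and 0.29.

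The remaining pathway genes named by the smallest p were Phlda1 (-0.21 and -0.14), the ERK phosphatase gene Dusp9 (-0.20 and -0.14) and the ERK-activated kinase gene Rps6ka3 (0.09 and 0.25, with means of -0.10 and -0.09 by its other probes). Of the ERK-raised genes outside the FGF set, 4 of 10 measured were below 0 on both arrays and 1 was above, beside 3 below and 3 above among 12 adaptors, 3 below and 3 above among 21 heparan sulfate genes, 2 below and 2 above among 8 co-receptors and ligand binders, and 1 below and 1 above among 14 relay genes. ERK-raised genes were thus found on both sides of control, with Etv1 and Egr1 the furthest from 0 of the 65. Beside these counts, 14.7% of all genes were below 0 on both arrays and 16.1% above.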

How the data were processed

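RNA from Rbpj-cKO and control ureters was hybridised in 2 colours on 2 arrays with the dyes swapped. Per the submitters' processing notes, spots were read with Agilent Feature Extraction 10.7.3.1. Per the file headers, the deposited files hold mean, local background and processed intensity of each spot on a linear scale, the log10 ratio of red over green, and flags, with probe positions on mm9. The authors' deposited series table holds values whose unit is not stated, treated as a score and read as a signed fold change (r = 0.979 and 0.982 with the scanner ratios of the same arrays, median 1).

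With limma 3.58.1 in R 4.3.3, mean intensity was background-corrected (normexp, offset 50) and normalised by loess, with weight 0 for control spots. Outlier spots were left out and the 4 spots of a probe averaged. The ratio of replicate 2 was turned, so that log2 ratios computed here from the deposited intensities are Rbpj-cKO over control. A probe was kept if, on each array, 2 of its 4 spots were flagged as well above background in 1 channel or both (26980 of 39429), and the brightest probe stood for a gene. lmFit and eBayes tested the mean of the arrays against 0 (residual df 1, prior df 5.57), with Benjamini-Hochberg adjustment over 20495 genes. Exon and UTR positions of probes were not analysed here. Gene names were updated through the RefSeq table on GRCm38.p6, used for no probe position.

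The set and the lists were chosen with earlier results of these data known, although the rule for members goes by gene name only. Full statistics were given for the 8 members with the smallest limma p, the receptors, Spry1, Spry2, Spry4, Etv4, Etv5 and Dusp6. Also named were the 8 pathway genes with the smallest p, Rbpj, Tbx18 and the brightest markers of each cell type list. Alternatives were scanner ratios, no background correction, median centring, offset 10, a stricter filter and none, the mean over probes, the deposited series table, moderation with trend and robust settings, and each array alone.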

Additional observations from a re-analysis of the deposited data

How the results depend on the processing

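Under 9 alternatives that use both arrays, 0 FGF genes passed an adjusted p under 0.05 with limma (0 to 3 had an unadjusted p under 0.05). Of the 15 members with the same sign on both arrays, all 134 values under these alternatives kept the sign of the mean, and 124 kept the same sign on both arrays. The stricter filter, no filter and trend and robust moderation left the ratios of these members unchanged, and the stricter filter dropped Spred3. The mean over probes likewise left genes with 1 measured probe unchanged. Both counts include such values, which could not lose a sign. Fgf7 ranged from -0.37 to -0.35, Fgf18 from -0.33 to -0.30 and Fgfr4 from -0.25 to -0.21. The count of all genes past the threshold, 0 in the main setting, was 1 with the scanner ratios (Gm19410) and 5 with trend and robust moderation (9430037G07Rik, D030062O11Rik, Gm19410, Mdfi and Ren2). Genes at least 1.5-fold the same way numbered 40, and 88 with the scanner ratios and 85 with the authors' deposited series table. The median over FGF genes was -0.0317 with median centring, where r between the arrays was -0.51, and from -0.0188 to -0.0034 with each array alone. With the mean over probes, Fgfr3 was at 0.0004 and Rps6ka3 turned to -0.0095. These averages take in dimmer measured probes with means below 0, at -0.11 for Fgfr3 and at -0.10 and -0.09 for Rps6ka3. The cause of the other shifts, and of the differences between probes of a gene, was not tested. One array alone allows no test and no count over both arrays. The test is paired by construction, since each ratio sets both genotypes against each other on 1 array. With 2 arrays of opposite colour and sex, dye, sex and the other differences between the pairs cannot be told apart, and members at signals under about 40 rest on dim spots.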

Other observations

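Other cell types that the dissected ureters could hold were read from marker lists, given here as values. Of 6 macrophage markers, 5 were above 0 on both arrays and 0 below, with median ratios of 0.40 and 0.05. Of 7 measured nephron markers 3 were above 0 on both arrays and 0 below, and Nphs1 was not well above background. Of 10 erythroid genes 0 were above and 1 below, with medians of 0.24 and -0.58, so that most ran opposite ways on the arrays, as skeletal muscle genes did. Urothelial markers numbered 2 above and 3 below of 9, and endothelial markers 2 above and 1 below of 6. Of 5 mesothelial markers 2 were above and 0 below, and of 5 markers of the ureteric bud and collecting duct 1 was above and 0 below.

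The FGF probes ranged from 20% to 55% in GC content, with a median of 38.3% over 44 measured probes. Across these probes GC content had r = 0.201 with the difference between the arrays and r = -0.173 with the mean ratio, a description over probes that share genes. The ETS motif CCGGAA, searched on both strands (CCGGAA and TTCCGG), was in the 250 bases before the start of 3 of 24 measured members with a RefSeq entry (Fgf5, Fgfr4 and Fgfrl1), which is 12.5%, and in 19.2% of the promoters of all measured genes.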
